A study of Mus musculus with 18 samples.

Results

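The multiciliation regulators are 7 genes that set or carry out the program by which a cell makes many motile cilia. The rule was a list of symbols, Gmnc, Mcidas, Ccno, Foxj1, Myb, Rfx2 and Rfx3, and all 7 were found among the 38355 genes counted in each library. All 7 also passed the filter on low counts that left 16236 tested genes. The 7 symbols were chosen by name when the fold changes of these genes between the same genotypes were already known, so their levels and fold changes are given as a description. Which of them passed the threshold of the fit over all genes is stated only beside the share of all genes that did, in every comparison, and supports nothing.

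RNA was sequenced from dissected cortex of C57BL/6 mouse embryos at stage E12.5. The 18 libraries comprised 5 of the double KO (Dmrt3-/-;Dmrt5-/-), 4 of Dmrt5 KO (Dmrt5-/-), 5 of Dmrt3 KO (Dmrt3-/-) and 4 of wild type (WT). Dmrt3 and Dmrt5, whose current symbol is Dmrta2, are related transcription factors of cortical progenitors. The labels name no allele, no Cre driver and no pooling of embryos. The labels also do not say whether the libraries of a genotype came from separate embryos, so SDs and p-values measure the spread between libraries, which may be technical.

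In multiciliated cells of vertebrates, Gmnc acts first and turns on Mcidas, a geminin-related co-factor of E2F proteins. Mcidas then acts with its partners to raise Ccno, Myb and Foxj1, and the Rfx factors act beside Foxj1 on the genes of the ciliary shaft. In the forebrain, multiple motile cilia are known from the epithelium of the choroid plexus and, later in development, from ependymal cells. The choroid plexus arises at the dorsal midline, next to the cortical hem.

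The level of the targeted transcripts was read first. Dmrt3 averaged 0.157 ± 0.180 CPM in the double KO and 0.308 ± 0.065 CPM in Dmrt3 KO, against 56.9 ± 4.10 CPM in WT (SD, n = 5, 5 and 4). Dmrta2 averaged 3.55 ± 1.34 CPM in the double KO and 10.7 ± 9.64 CPM in Dmrt5 KO, against 194 ± 29.7 CPM in WT (n = 5, 4 and 4), and Dmrt5 KO replicate 1 was the highest of its genotype at 25.1 CPM. CPM are counts relative to library size, after scaling by the trimmed mean of M-values. Libraries held between 19602718 and 33072896 counts. The slope of a library's log2 values on log2 exon length, a measure used as a sign of RNA quality, was 0.326 in double KO replicate 5 and 0.243 in WT replicate 4 and lay between -0.196 and 0.0964 in the other libraries. The summed level of 8 mesenchymal markers, of which 0 were called in any comparison with WT, ran from 27.7 to 2009 CPM in the double KO and from 729 to 2352 CPM in WT. The summed level of 8 cortical markers ran from 1152 to 1329 CPM in the double KO, 1657 to 1711 CPM in Dmrt5 KO, 1997 to 2271 CPM in Dmrt3 KO and 2113 to 2364 CPM in WT. Of these, 6 fell and 1 rose in the double KO, 3 fell in Dmrt5 KO and 0 were called in Dmrt3 KO, and Emx1, which marks dorsal cortical progenitors, had 4.602 to 12.4 CPM in the double KO, against 113 to 180.01 CPM in WT. The part of this difference in the members' levels was not tested.

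The first members of the cascade lie at 2 places in the genome (GRCm38, the same assembly as mm10). Gmnc (ENSMUSG00000068428) is on the minus strand of chromosome 16 from 26913553 to 26991652. Ccno (ENSMUSG00000042417) and Mcidas (ENSMUSG00000074651) are neighbours on the plus strand of chromosome 13, from 112987802 to 112990777 and from 112993845 to 113000394, with 3.07 kb between them. The 250 bases before the RefSeq transcript start of these 3 genes are shown because these members had the largest fold changes of the 7. They are printed in the direction of transcription, 5′ to 3′, from RefSeq on build GRCm38.p6, and capitals mark the core letters bound by RFX factors, GTTGCC.
Gmnc, chr16:26991653-26991902, minus strand: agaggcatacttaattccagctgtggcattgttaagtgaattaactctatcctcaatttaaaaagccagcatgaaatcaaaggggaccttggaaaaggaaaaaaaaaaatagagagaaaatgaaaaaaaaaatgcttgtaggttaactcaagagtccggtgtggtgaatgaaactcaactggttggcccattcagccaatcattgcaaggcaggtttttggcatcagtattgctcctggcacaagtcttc
Mcidas, chr13:112993618-112993867, plus strand: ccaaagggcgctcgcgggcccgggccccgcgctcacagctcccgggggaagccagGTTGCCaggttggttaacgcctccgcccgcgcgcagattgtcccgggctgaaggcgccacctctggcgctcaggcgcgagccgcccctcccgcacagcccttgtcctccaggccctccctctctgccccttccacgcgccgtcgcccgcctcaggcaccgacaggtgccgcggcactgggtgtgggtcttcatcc
Ccno, chr13:112987552-112987801, plus strand: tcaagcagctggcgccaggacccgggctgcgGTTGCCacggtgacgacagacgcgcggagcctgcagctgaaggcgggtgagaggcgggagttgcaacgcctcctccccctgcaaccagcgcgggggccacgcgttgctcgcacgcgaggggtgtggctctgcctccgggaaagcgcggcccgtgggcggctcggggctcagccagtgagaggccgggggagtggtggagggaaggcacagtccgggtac

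RefSeq promoter entries matched 6 of the 7 members, and 4 sets of letters were searched on both strands of the 250 bases before each start. The RFX core GTTGCC was in the windows of Mcidas, Ccno and Rfx2, starting 195, 219 and 116 bases before the start, and in 10.4% of all 32851 promoter windows. The E2F core GGCGGGA was in the windows of Ccno, Myb and Rfx2 and in 9.75% of all windows. The forkhead core GTAAACA, found in 3.17% of all windows, was in no member's window. The letters TGTATC, a part of the motif bound by DMRT proteins and found in 6.19% of all windows, were in none either. Only these exact letters were searched, so a DMRT site with other letters would be missed. The Gmnc windows, for which RefSeq has 2 starts, held none of the 4 sets of letters. The GC content was 39.2% in the window printed for Gmnc, which lies before the start of the annotated gene, and 51.6% in that of its other start, and it was 73.6% for Mcidas and 72.4% for Ccno. A match is a description of the letters and not a binding site.

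Per base of exon, the members differed in level in WT cortex. Foxj1, the forkhead factor of motile cilia, was highest at 17.2 ± 3.26 FPKM, followed by Ccno at 6.73 ± 1.37, Rfx3 at 5.73 ± 1.28, Rfx2 at 3.64 ± 0.258, Mcidas at 3.37 ± 1.001, Gmnc at 1.88 ± 0.890 and Myb at 1.41 ± 0.236 FPKM (SD, n = 4). Of the neighbours in that order, Foxj1 and Ccno, and Rfx3 and Rfx2, lay apart by more than their SDs together, and the other neighbours did not. In double KO cortex the order was Rfx3 at 6.24 ± 1.82, Foxj1 at 5.69 ± 1.38, Rfx2 at 2.69 ± 0.562, Myb at 1.13 ± 0.274, Ccno at 0.328 ± 0.271, Mcidas at 0.149 ± 0.120 and Gmnc at 0.0241 ± 0.0376 FPKM (n = 5). There the neighbours Rfx3 and Foxj1, Ccno and Mcidas, and Mcidas and Gmnc were not apart by more than their SDs together. Ccno, Mcidas and Gmnc lay below the other members in the double KO and among them in WT.

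Gmnc, the coiled-coil protein at the head of the cascade, was nearly absent from double KO cortex. Its counts were 0, 1, 3, 12 and 0 in the 5 double KO libraries, 37, 27, 56 and 26 in Dmrt5 KO, 88, 126, 263, 220 and 159 in Dmrt3 KO, and 216, 188, 181 and 630 in WT. In CPM these were 0, 0.0457, 0.133, 0.511 and 0 in the double KO, 1.83, 1.12, 2.23 and 0.780 in Dmrt5 KO, 3.86, 5.57, 10.2, 7.54 and 6.85 in Dmrt3 KO, and 7.25, 10.03, 7.66 and 18.2 in WT. All double KO libraries lay below all Dmrt5 KO libraries, and all of those below every Dmrt3 KO and WT library, while Dmrt3 KO and WT overlapped. The counts of 0 in double KO replicates 1 and 5 allow up to 3 counts, or 0.147 and 0.117 CPM; these limits cover counting error only.

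The fitted log2 fold change of Gmnc was -6.22 ± 0.66 (SE) in the double KO against WT, a 74.6-fold lower level. In Dmrt5 KO against WT it was -2.86 ± 0.57, or 7.28-fold lower, and in Dmrt3 KO against WT it was -0.67 ± 0.49. Double KO replicate 4 held 12 of the 16 Gmnc counts of its genotype, and without it the log2 fold change against WT was -7.78. WT replicate 4 was the highest WT library, and without it the value was -5.85. Both libraries were also the highest of their genotypes in Col1a1, a collagen of mesenchyme. Col1a1 had 421 CPM in double KO replicate 4 and 1.52 to 52.8 CPM in the other double KO libraries. It had 746 CPM in WT replicate 4 and 140 to 254 CPM in the other WT libraries. After the genotype means were removed, the correlation of Gmnc with Col1a1 over the 18 libraries was 0.685. The part of that tissue in the Gmnc values was not tested.

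Mcidas, the co-factor through which Gmnc acts, followed the same order of genotypes. It had 0.0978, 0.183, 0.534, 0.767 and 0.195 CPM in the double KO, 1.73, 0.788, 1.87 and 1.92 CPM in Dmrt5 KO, 7.71, 5.97, 6.77, 7.30 and 4.44 CPM in Dmrt3 KO, and 9.98, 5.34, 6.64 and 10.04 CPM in WT. The highest double KO library and the lowest Dmrt5 KO library were 0.767 and 0.788 CPM, a narrow gap, whereas the highest Dmrt5 KO library had 1.92 CPM and the lowest WT library 5.34 CPM. Dmrt3 KO and WT overlapped. The log2 fold change against WT was -4.47 ± 0.43 in the double KO (22.1-fold lower), -2.34 ± 0.41 in Dmrt5 KO (5.06-fold lower) and -0.32 ± 0.36 in Dmrt3 KO.

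Ccno, a cyclin-like protein needed for the mass production of centrioles, lay about as far below WT as its neighbour Mcidas. It had 0.245, 0.685, 1.07, 1.92 and 0.273 CPM in the double KO, 4.99, 2.94, 4.11 and 3.57 CPM in Dmrt5 KO, 18.2, 15.2, 16.7, 15.9 and 11.5 CPM in Dmrt3 KO, and 13.9, 20.1, 20.4 and 14.4 CPM in WT. The double KO, Dmrt5 KO and the pair of Dmrt3 KO and WT formed 3 ranges with no overlap, and Dmrt3 KO and WT overlapped. The log2 fold change against WT was -4.35 ± 0.41 in the double KO (20.3-fold lower), -2.14 ± 0.40 in Dmrt5 KO (4.40-fold lower) and -0.15 ± 0.36 in Dmrt3 KO.

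Foxj1, which switches on genes of the motile axoneme, lay less far below WT and kept at least 248 counts in every library. It had 15.7, 18.7, 17.8, 10.6 and 11.8 CPM in the double KO, 24.1, 14.7, 19.2 and 21.9 CPM in Dmrt5 KO, 61.6, 49.0, 50.4, 54.5 and 33.9 CPM in Dmrt3 KO, and 48.7, 35.8, 55.0 and 40.5 CPM in WT. Double KO and Dmrt5 KO overlapped each other and lay wholly below Dmrt3 KO and WT, which also overlapped. The log2 fold change against WT was -1.59 ± 0.20 in the double KO (3.01-fold lower), -1.17 ± 0.22 in Dmrt5 KO (2.25-fold lower) and 0.15 ± 0.20 in Dmrt3 KO.

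**Figure D1:**
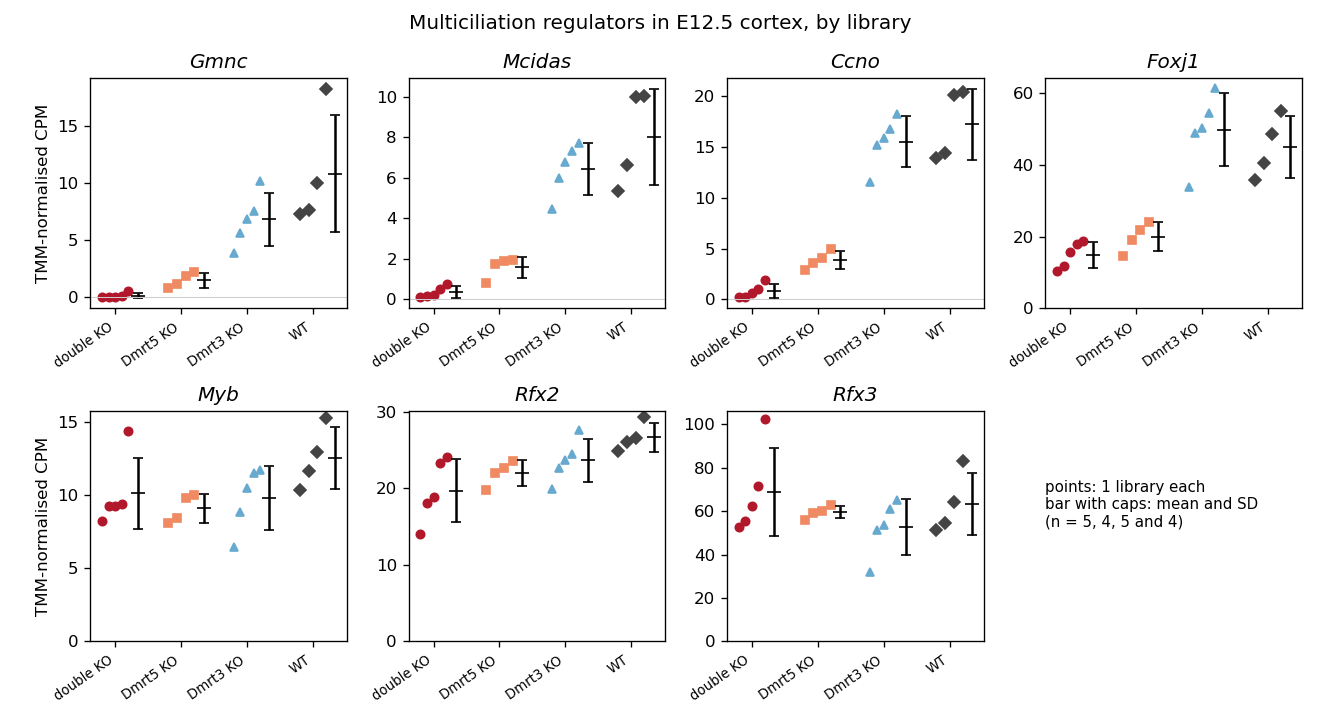
Level of each regulator in TMM-normalised CPM on linear axes from 0, with 1 point per library for the double KO, Dmrt5 KO, Dmrt3 KO and WT, and a bar with caps for the mean and SD (n = 5, 4, 5 and 4). Gmnc, Mcidas and Ccno step up from the double KO to Dmrt5 KO and then to Dmrt3 KO and WT, Foxj1 splits into a low and a high pair of genotypes, and Myb, Rfx2 and Rfx3 lie within a narrower range.

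Myb, a proliferation factor that is also used early in multiciliated cells, had 8.27 to 14.4 CPM in the double KO, 8.09 to 10.03 CPM in Dmrt5 KO, 6.44 to 11.8 CPM in Dmrt3 KO and 10.4 to 15.3 CPM in WT. Its log2 fold change against WT was -0.31 ± 0.19 in the double KO, -0.47 ± 0.21 in Dmrt5 KO and -0.36 ± 0.19 in Dmrt3 KO. Double KO replicate 5 stood alone at 14.4 CPM, where the other double KO libraries had 8.27 to 9.43 CPM, and it was the library with the steepest length slope. Myb is also a gene of blood progenitors, and the summed level of 6 blood progenitor markers was lowest in that same library, at 5.27 CPM, against a range of 21.6 to 34.2 CPM in WT, with 0 of the 6 called in any comparison with WT. Of the bases in Myb exons, 6.3% overlap the antisense gene Gm26577, and the library kit does not mark strand, so reads of the pair cannot be told apart.

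Rfx2 and Rfx3, winged-helix factors that act on genes of both motile and primary cilia, lay closer to WT in the double KO and in Dmrt5 KO than Gmnc, Mcidas, Ccno or Foxj1. Rfx2 had 14.0 to 24.02 CPM in the double KO, 19.7 to 23.6 CPM in Dmrt5 KO, 19.9 to 27.5 CPM in Dmrt3 KO and 24.8 to 29.3 CPM in WT. All double KO and all Dmrt5 KO libraries lay below all WT libraries, with log2 fold changes of -0.44 ± 0.14 and -0.28 ± 0.15, and Dmrt3 KO overlapped WT at -0.17 ± 0.14. Rfx3 had 52.6 to 102 CPM in the double KO, 56.1 to 62.9 CPM in Dmrt5 KO, 31.9 to 65.3 CPM in Dmrt3 KO and 51.5 to 82.9 CPM in WT, and all genotypes overlapped. Its log2 fold change against WT was 0.12 ± 0.21 in the double KO, -0.09 ± 0.22 in Dmrt5 KO and -0.27 ± 0.21 in Dmrt3 KO. The highest Rfx3 values, 102 CPM in double KO replicate 5 and 82.9 CPM in WT replicate 4, were in the libraries with the steepest length slopes. Over the 18 libraries Rfx3 and the slope had a Pearson r of 0.648. Rfx3 lies 2138 kb from Dmrt3 on chromosome 19.

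**Figure D2:**
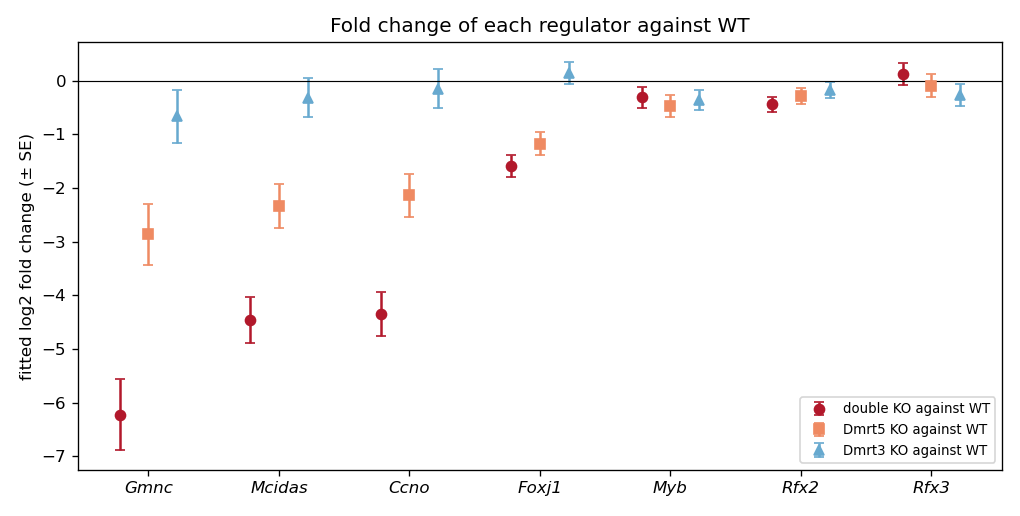
Fitted log2 fold change ± SE of the 7 regulators in the double KO, Dmrt5 KO and Dmrt3 KO, each against WT. Gmnc, Mcidas, Ccno and Foxj1 lie below 0 in the double KO and, less far, in Dmrt5 KO, and the Dmrt3 KO values lie between -0.67 and 0.15.

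Across all tested genes, the edgeR fit called 6.23% in the double KO against WT, 1.03% in Dmrt5 KO against WT and 0.0123% in Dmrt3 KO against WT at a Benjamini-Hochberg adjusted p under 0.05. Genes called lower were 3.81% in the double KO and 0.69% in Dmrt5 KO. Of the 7 members, 4 were past that threshold in the double KO and the same 4, Gmnc, Mcidas, Ccno and Foxj1, in Dmrt5 KO, all lower. In Dmrt3 KO against WT, 0 members and 2 genes in all were called by edgeR, 57 genes by DESeq2, and 1163 genes, or 7.16%, had an unadjusted p under 0.05. All libraries lay below all WT libraries for 5 members in the double KO, where 3.4% of tested genes did so, for 6 in Dmrt5 KO, where 4.34% did, and for 0 in Dmrt3 KO, where 1.67% did. The members were listed with these contrasts in view, so nothing is read from the counts. The 3 comparisons share the WT libraries. In Dmrt5 KO the call of Gmnc was lost without WT replicate 4 or Dmrt5 KO replicate 1, those of Gmnc and Ccno without Dmrt5 KO replicate 5, and those of Gmnc, Ccno and Foxj1 without Dmrt5 KO replicate 2. The log2 fold changes of all 4 lay between -3.13 and -1.05 when any single library was left out.

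The double KO was also set against each single KO, and here too the members were listed with the fold changes known, so nothing is read from their calls. Against Dmrt5 KO, where 0.333% of tested genes were called, 0.32% were called lower and 1.37% lay lower with no overlap, Gmnc differed by -3.36 ± 0.67, Mcidas by -2.13 ± 0.43 and Ccno by -2.21 ± 0.40 on the log2 scale, and these 3 members were past the threshold with no overlap of libraries. Foxj1 differed by -0.42 ± 0.20, with overlapping libraries, and Myb, Rfx2 and Rfx3 by 0.16 ± 0.20, -0.16 ± 0.14 and 0.21 ± 0.21. Of the 3 calls, 0 remained when the fit used only the libraries of the 2 genotypes, and 0 without Dmrt5 KO replicate 1, Dmrt5 KO replicate 4 or double KO replicate 2. Ccno alone remained without WT replicate 3, Dmrt3 KO replicate 2 or 4, or double KO replicate 1, 3 or 5. It was also the only call left without WT replicate 4 and double KO replicate 5 together. Without WT replicate 1, Dmrt3 KO replicate 1, 3 or 5, or Dmrt5 KO replicate 5, 2 calls remained, Ccno among them. Against Dmrt3 KO, where 3.7% of tested genes were called, 1.96% were called lower and 2.51% lay lower with no overlap, Gmnc differed by -5.55 ± 0.65, Mcidas by -4.15 ± 0.42, Ccno by -4.20 ± 0.40 and Foxj1 by -1.74 ± 0.20, and these 4 members were past the threshold with no overlap.

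The interaction sets the double KO against the level that adding both single effects on the log2 scale would give, and a negative one means a lower double KO level than that. Its value was -2.69 ± 0.84 for Gmnc, -1.81 ± 0.56 for Mcidas, -2.06 ± 0.54 for Ccno and -0.57 ± 0.29 for Foxj1 on the log2 scale. Without double KO replicate 4, the library with most of the Gmnc counts of its genotype, the Gmnc value was -4.24. For Myb it was 0.51 ± 0.28, for Rfx2 0.01 ± 0.20 and for Rfx3 0.48 ± 0.30. For the interaction, edgeR called 0.142% of tested genes and 0 members, with 9.22% of tested genes at an unadjusted p under 0.05. DESeq2 called 127 genes, among them 2 members, Gmnc and Ccno. Gmnc and Ccno were also past the threshold in edgeR without double KO replicate 4, where 1 gene was called higher and 31 lower. Nothing is read from these calls, since the members were listed with the fold changes known.

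Like the members, the other gene lists of this report were chosen with earlier results of these data known. Their calls and p-values are therefore a description and no independent test of the members' pattern. Trp73, a p53-family factor upstream of Foxj1 in mouse multiciliated cells and a marker of hem-derived Cajal-Retzius neurons, was tested with other cascade partners. It fell to 10.6 ± 2.25 CPM in the double KO and to 21.4 ± 1.61 CPM in Dmrt5 KO, against 40.8 ± 11.4 CPM in WT (SD, n = 5, 4 and 4), with 27.6 ± 3.01 CPM in Dmrt3 KO (n = 5). The log2 fold change against WT was -1.95 ± 0.19 in the double KO (edgeR adjusted p = 4.92e-06) and -0.93 ± 0.20 in Dmrt5 KO (adjusted p = 0.0266), and no library overlapped WT in either. In Dmrt3 KO it was -0.57 ± 0.18 (adjusted p = 0.466). The double KO also lay below Dmrt5 KO, at a log2 fold change of -1.02 ± 0.19 (adjusted p = 0.0175), a call that was lost without Dmrt5 KO replicate 4 (0.0661) or replicate 5 (0.083). Of 9 Cajal-Retzius markers listed, 1 fell, Trp73, and 1 rose, Lhx5, in the double KO against WT. Only Trp73 was called in Dmrt5 KO, and 0 were called in Dmrt3 KO. The median log2 fold change of the 9 was -0.09 in the double KO and 0.004 in Dmrt5 KO.

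Cdc20b, which takes part in the release of new centrioles from deuterosomes, is the next gene after Mcidas on chromosome 13. It had 0.147, 0.137, 0, 0.0852 and 0.117 CPM in the double KO, 0.0989, 0.0415, 0.558 and 0.420 CPM in Dmrt5 KO, 0.776 to 3.15 CPM in Dmrt3 KO, and 3.33, 0.267, 3.26 and 5.70 CPM in WT. Its log2 fold change against WT was -4.96 ± 0.79 in the double KO (edgeR adjusted p = 0.000737) and -3.43 ± 0.74 in Dmrt5 KO (adjusted p = 0.0316). WT replicate 2, at 0.267 CPM, lay among the Dmrt5 KO libraries. Foxn4, a forkhead factor that acts in multiciliated cells of frogs and in neural progenitors, moved the other way. It rose to 3.07 ± 0.904 CPM in the double KO, against 0.440 ± 0.0758 CPM in WT (log2 fold change 2.80 ± 0.38, edgeR adjusted p = 0.00017; n = 5 and 4). Against Dmrt5 KO, at 0.964 ± 0.202 CPM, Foxn4 differed by 1.66 ± 0.35 on the log2 scale (edgeR adjusted p = 0.0488). That call was lost without any single WT or Dmrt5 KO library, with adjusted p up to 0.221. It was also lost without Dmrt3 KO replicate 1, 3 or 4 or double KO replicate 2, 3 or 5. The edgeR adjusted p was 0.0572 with no filter on low counts, 0.0604 with only the 2 genotypes and 0.0813 with same-numbered libraries as blocks.

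Of the 7 partners listed, 2 fell and 1 rose in the double KO, 2 fell in Dmrt5 KO and 0 were called in Dmrt3 KO against WT. E2f4, E2f5 and Tfdp1, the E2F proteins and dimer partner with which Mcidas works, and Gmnn, the geminin gene, were not called in any comparison with WT. Their log2 fold changes lay between -0.18 and 0.23 in the double KO, between -0.38 and 0.18 in Dmrt5 KO and between -0.46 and 0.15 in Dmrt3 KO. The Dmrt5 KO calls of Trp73 and Cdc20b were lost without WT replicate 1, WT replicate 4, Dmrt5 KO replicate 1, Dmrt5 KO replicate 2 or Dmrt5 KO replicate 5, with adjusted p up to 0.123. That of Cdc20b was also lost without WT replicate 3 and that of Trp73 without Dmrt5 KO replicate 4. Of the other Rfx genes 5, Rfx1, Rfx4, Rfx5, Rfx7 and Rfx8, were tested and 0 were called by edgeR in any comparison. Rfx4 had log2 fold changes of -0.55 ± 0.18 in the double KO (adjusted p = 0.088) and -0.78 ± 0.19 in Dmrt5 KO (edgeR adjusted p = 0.064). The log2 fold changes of Mybl1 and Mybl2 against WT lay between -0.35 and 0.01, with 0 called.

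Centriole amplification needs the deuterosome protein Deup1, and it was the member of that list that fell. Deup1 averaged 0.307 ± 0.158 CPM in the double KO and 0.785 ± 0.455 CPM in Dmrt5 KO, against 4.44 ± 1.90 CPM in WT (SD, n = 5, 4 and 4). The log2 fold change was -3.84 ± 0.51 in the double KO (edgeR adjusted p = 0.000151) and -2.48 ± 0.50 in Dmrt5 KO (adjusted p = 0.0196). The other 9 genes of the list, Ccdc78, Plk4, Stil, Sass6, Cep63, Cep152, Cenpj, Ccp110 and Pcm1, most of which also serve the ordinary duplication of centrioles in dividing cells, were not called. The list median was -0.07 in the double KO and -0.35 in Dmrt5 KO, where the median of all tested genes was 0.01 and -0.02. The Dmrt5 KO call of Deup1 was lost without WT replicate 1, WT replicate 4, Dmrt5 KO replicate 1, Dmrt5 KO replicate 2 or Dmrt5 KO replicate 5, with adjusted p up to 0.0818.

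Genes of the motile axoneme, the beating shaft that Foxj1 and the Rfx factors act on, fell in part. Of 54 listed genes 48 were tested, and 16 fell in the double KO, 5 fell in Dmrt5 KO and 0 were called in Dmrt3 KO against WT; 0 rose. The list median was -0.44 in the double KO, -0.54 in Dmrt5 KO and -0.04 in Dmrt3 KO. In the double KO 32 of the 48 were not called. The summed level of the list ran from 228 to 258 CPM in the double KO and from 252 to 296 CPM in WT. The 4 genes given next had the lowest adjusted p of the list against WT and are not typical of it. Rsph4a, a radial spoke head protein, averaged 0.181 ± 0.122 CPM in the double KO and 0.317 ± 0.065 CPM in Dmrt5 KO, against 2.06 ± 0.923 CPM in WT, with log2 fold changes of -3.52 ± 0.42 (edgeR adjusted p = 5.12e-05) and -2.71 ± 0.42 (adjusted p = 0.00377). Dnah6, a dynein heavy chain, differed from WT by -4.28 ± 0.60 in the double KO and -3.87 ± 0.62 in Dmrt5 KO (adjusted p = 0.000261 and 0.00502). Cfap52 (-3.03 ± 0.42 and -2.55 ± 0.44; adjusted p = 0.000249 and 0.0078) and Hydin, a central pair protein (-2.03 ± 0.33 and -2.47 ± 0.37; adjusted p = 0.00104 and 0.00366), fell in both. In Dmrt3 KO, Rsph4a differed from WT by -0.75 ± 0.35, Dnah6 by -1.39 ± 0.47, Cfap52 by -0.12 ± 0.37 and Hydin by -1.21 ± 0.32. The edgeR adjusted p of these 4 in Dmrt3 KO lay between 0.295 and 0.882. The level of these genes was low even in WT, between 1.45 and 2.06 CPM on average for these 4. The double KO count was 10 without WT replicate 1 or WT replicate 3, 10 without WT replicate 4 and double KO replicate 5 together, and 6 when the fit used the libraries of the 2 genotypes alone. The Dmrt5 KO count was 12 without WT replicate 2.

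Genes of ciliary transport, which primary cilia of all progenitors use too, lay near WT in level. Of 26 such genes, which include reported targets of Rfx factors, 26 were tested and 0 were called in any of the 6 comparisons by edgeR. Their log2 fold changes lay between -0.15 and 0.30 in the double KO and between -0.39 and 0.30 in Dmrt5 KO. Bbs4, a subunit of the BBSome, had 0.30 ± 0.11 in double KO cortex (edgeR adjusted p = 0.132), Bbs2, another subunit, had 0.21 ± 0.10 there (adjusted p = 0.265), and Dync2h1, the motor of return transport, had -0.39 ± 0.15 in Dmrt5 KO (adjusted p = 0.303). With the length slope of the libraries in the fit, an alternative added after the data were seen, 4 genes of this list were called in the double KO.

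**Figure D3:**
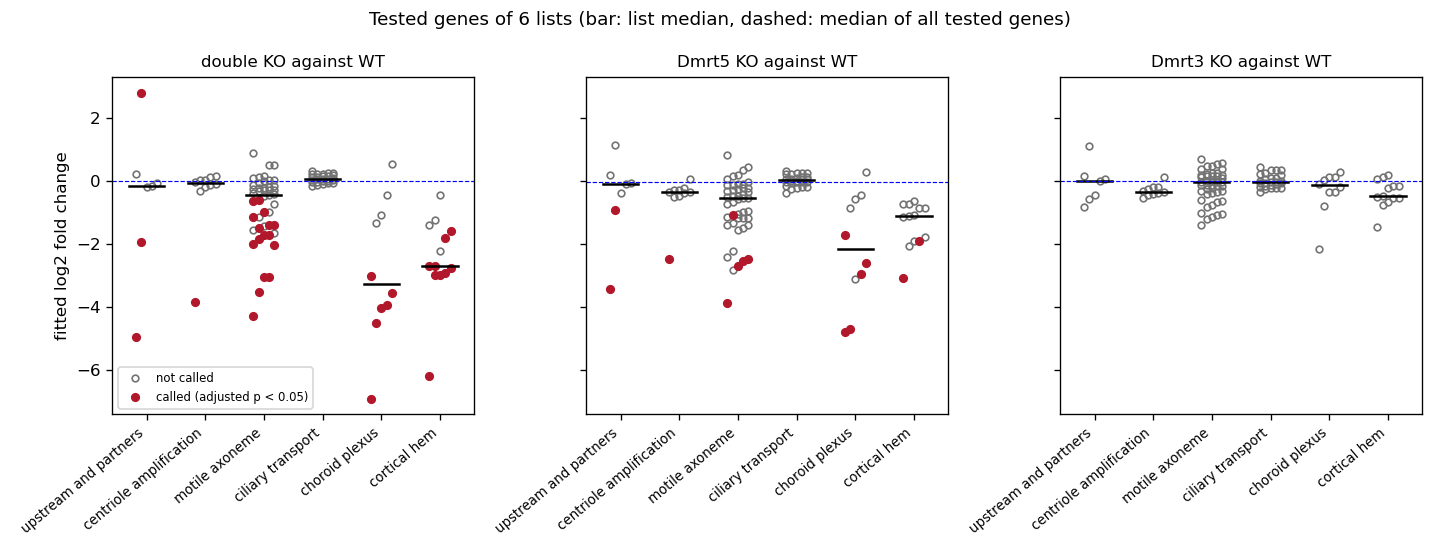
Fitted log2 fold change of every tested gene of 6 lists in the double KO, Dmrt5 KO and Dmrt3 KO against WT; filled points were called, bars are list medians and the dashed line is the median of all tested genes. Genes of ciliary transport stay near 0 in all 3 panels, while called genes of the motile axoneme, choroid plexus and cortical hem lie below 0 in the double KO and Dmrt5 KO.

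The genome around Ccno and Mcidas was examined because these neighbours moved together. Within 500 kb of the Mcidas start, 11 genes were tested, and Ccno, Mcidas and Cdc20b, 34.7 kb past the end of Mcidas, were called lower in the double KO and in Dmrt5 KO. Among all tested genes, 3.81% and 0.69% were called lower there. The window was centred on a member, and Ccno and Mcidas were listed with their fold changes known, so nothing is read from their calls. The Dmrt5 KO calls of Ccno and Cdc20b were lost without some single libraries, as given above. The other 8 were not called in the 3 comparisons with WT. Dhx29, the next tested gene before Ccno, had -0.09 ± 0.11 in the double KO and -0.20 ± 0.12 in Dmrt5 KO, and Gpx8, which lies inside Cdc20b on the opposite strand, had -0.29 ± 0.26 and -0.07 ± 0.27.

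**Figure D4:**
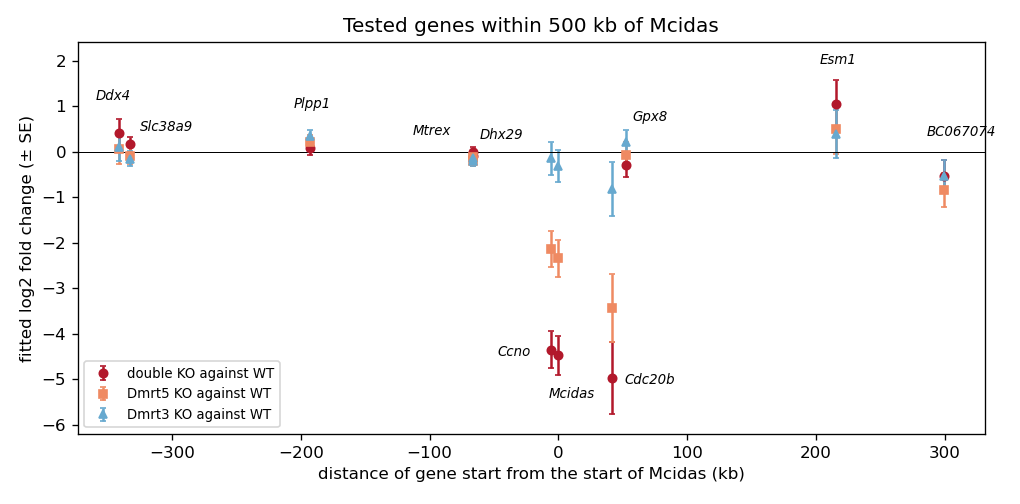
Fitted log2 fold change ± SE against WT of the 11 tested genes within 500 kb of Mcidas, by distance of their annotated start from that of Mcidas in kb, for the double KO, Dmrt5 KO and Dmrt3 KO. Ccno, Mcidas and Cdc20b lie far below 0 in the double KO and Dmrt5 KO, and the genes on either side lie between -0.85 and 1.05.

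Markers of the dorsal midline moved with the members, and in bulk tissue fewer cells of a type and less RNA per cell cannot be told apart. Ttr, the transthyretin gene that marks choroid plexus epithelium, had 0.195 to 4.65 CPM in the double KO, 0.912 to 10.1 CPM in Dmrt5 KO, 61.6 to 314 CPM in Dmrt3 KO and 50.1 to 235 CPM in WT. Of 13 choroid plexus markers 10 were tested, and 6 fell in the double KO, 5 in Dmrt5 KO and 0 in Dmrt3 KO. Lmx1a, a regulator of the cortical hem, had 1.33 to 3.88 CPM in the double KO, 4.80 to 5.44 CPM in Dmrt5 KO, 11.3 to 15.3 CPM in Dmrt3 KO and 17.7 to 20.2 CPM in WT. Of 14 hem markers 13 were tested, and 9 fell in the double KO, 2 in Dmrt5 KO and 0 in Dmrt3 KO. Wnt3a, the hem signal, had a log2 fold change of -6.18 ± 0.60 in the double KO (edgeR adjusted p = 5.35e-06). The summed level of the choroid plexus markers ran from 68.5 to 163 CPM in the double KO, 85.0 to 115 CPM in Dmrt5 KO, 196 to 438 CPM in Dmrt3 KO and 165 to 369 CPM in WT. That of the hem markers ran from 63.0 to 232 CPM in the double KO, 129 to 274 CPM in Dmrt5 KO, 269 to 428 CPM in Dmrt3 KO and 359 to 534 CPM in WT. The part of these cells in the members' levels was not tested.

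The genes most like each member over the 18 libraries were ranked by Pearson r of log2 CPM, as a description in which all values share the same libraries and genotype differences. Those nearest Gmnc were Emx2os (r = 0.979), Lmx1a (0.976), Ccno (0.975), Gas1 (0.968) and Mcidas (0.967), and those nearest Ccno were Lmx1a (0.98), Mcidas, Gmnc, Emx2os and Sp5. Mcidas was nearest to Ccno (0.977), Clic6, a choroid plexus gene (0.974), Emx2os, Gmnc and Lmx1a. After genotype means were removed, r was 0.924 for Ccno with Lmx1a, 0.81 for Gmnc with Lmx1a and 0.846 for Mcidas with Clic6. Among these members it was 0.721 for Gmnc with Ccno, 0.643 for Gmnc with Mcidas and 0.739 for Mcidas with Ccno. The double KO values rest on 0 to 12 counts per library for Gmnc, 2 to 18 for Mcidas and 5 to 45 for Ccno. Double KO replicate 4 was the highest of its genotype in each of them. It was also the highest there in the summed hem, choroid plexus and mesenchymal markers. These r without that library were not computed.

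Foxj1 had other nearest genes: Galnt14 (0.956), Ttr (0.945), Necab3 (0.943), Dmrta2 (0.94) and 2410004P03Rik (0.931). Within genotypes its r was -0.303 with Gmnc, 0.158 with Mcidas, 0.0997 with Ccno and 0.55 with Ttr. The Gmnc values of the double KO in this correlation rest on 0 to 12 counts per library. Myb was nearest to Jade1 (0.931), Msh3, Chd7, Qser1 and Kpna3. Rfx2 was nearest to Gatad2a (0.931), Tedc1, Zdhhc3, Slfn14 and Taf5l, and Rfx3 to Med13 (0.983), Zbtb6, Pbrm1, Pdik1l and Secisbp2l. For Rfx3, 167 genes had an r of at least 0.9, against 55 for Gmnc, 60 for Mcidas, 49 for Ccno and 20 for Foxj1. Within genotypes Myb and Rfx3 had an r of 0.895, and with the length slope of the libraries Myb had 0.695 and Rfx3 0.592. The part of the slope in this likeness was not tested.

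**Figure D5:**
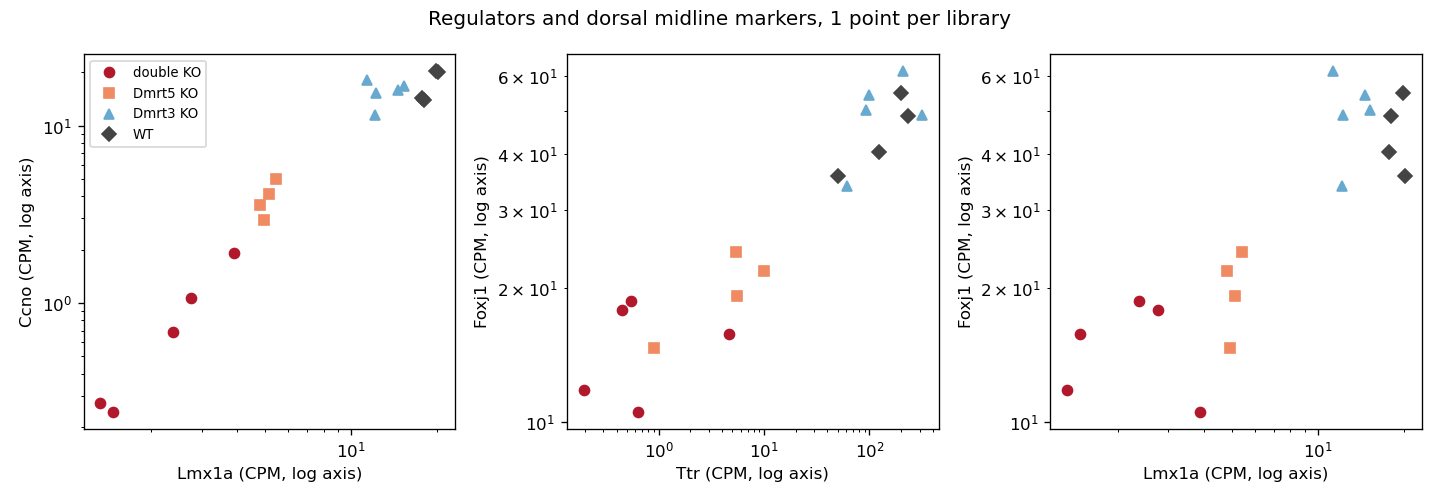
Ccno against Lmx1a, Foxj1 against Ttr and Foxj1 against Lmx1a in CPM on log axes, with 1 point per library for the double KO, Dmrt5 KO, Dmrt3 KO and WT. Ccno is higher where Lmx1a is higher across genotypes and, but for the lowest pair, among double KO libraries, while double KO replicate 4, at 3.88 CPM the highest of its genotype in Lmx1a, is the lowest library in Foxj1 at 10.6 CPM.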

How the data were processed

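RNA of dissected cortex at stage E12.5 was sequenced in 18 libraries from TruSeq RNA v2 preparations, a kit that does not mark strand. The deposited files hold raw counts per Ensembl gene, not normalised by the authors. The build mm10 and the tools STAR 2.3.0e, featureCounts 1.4.6-p1, DESeq2 1.8.2, FastQC 0.10.1, CASAVA 1.8.2 and bcl2fastq are named in the submitters' processing notes. Annotation release, strand setting and treatment of multi-matching reads were not given in the sources used here. Identifiers were matched to GENCODE M21 for 36602 of 38355 genes, and the unmatched genes held 0.397% of the counts. Members were found by symbol.

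The quasi-likelihood test of edgeR 4.0.16 (R 4.3.3) was run with filterByExpr (16236 genes), TMM scaling and 1 mean per genotype over all 18 libraries. A gene was called at a Benjamini-Hochberg adjusted p under 0.05 over all tested genes in the two-sided test of that comparison. The SE comes from the fold change and its F statistic. FPKM were computed here from CPM and exon length, and log2 CPM for correlations used a prior count of 2. The fit was tested on simulated counts for the 3 comparisons with WT. By comparison, it recovered 4% to 12% of 1.5-fold changes, 38% to 58% of 2-fold, 74% to 82% of 3-fold and 76% to 84% of 4-fold changes. A gene that was not called may therefore still have changed. Of the genes simulated without a change, 7 were called for the double KO, 2 for Dmrt5 KO and 16 for Dmrt3 KO. A called gene may therefore also be unchanged. DESeq2 1.42.0, other scalings, filters and sample sets, a replicate block and leaving out each library were alternatives.

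Genes named are the 7 members, Dmrt3 and Dmrta2, all partners and relatives listed, up to 4 genes per other list with the lowest adjusted p, Ttr, Lmx1a and Trp73, and the 5 genes most like each member. Col1a1, Emx1, Gm26577, Dhx29, Gpx8 and the rest of the centriole list were named after their values were seen. The members and lists were chosen with earlier results of these data known. Deviations of same-numbered libraries from their genotype means had correlations of 0.0588 to 0.703 between the double KO and Dmrt5 KO. Between the double KO and WT they were -0.284 to 0.513. Whether the numbers pair the libraries was not settled, and the main fit did not pair them. Replicates differed beyond sampling noise in every pair (lowest chi-square per degree of freedom 11.8). List genes not tested were Rfx6, listed at 0 counts, Dnah3, Dnah12, Spag17, Ccdc153, Armc4, Lrrc6, Kl, Prlr, Cldn2 and Gdf7.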

Additional observations from a re-analysis of the deposited data

Results flagged for a closer look

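In groups of 4 and 5 libraries, a library was marked when its gap to the nearest other one exceeded Dixon's 95% critical share of the range. In all 124 gene and genotype groups were checked, 13 were marked, and chance alone marks about 1 in 20. Among the members, Gmnc in double KO replicate 4 (0.511 CPM, others 0 to 0.133), Mcidas in Dmrt5 KO replicate 2 (0.788 CPM, others 1.73 to 1.92) and Myb in double KO replicate 5 (14.4 CPM, others 8.27 to 9.43) were marked. Double KO replicate 5, the library with the steepest length slope, was also the highest of its genotype in Ccp110 (172 CPM, others 67.8 to 80.6), Cenpj (42.9 CPM, others 28.7 to 31.4), Pcm1 (258 CPM, others 117 to 145), Rfx4 (38.1 CPM, others 20.05 to 23.2) and Rfx7 (130 CPM, others 49.3 to 60.6). WT replicate 4 was the highest of its genotype in Cenpj (41.6 CPM, others 29.9 to 31.4) and Plk4 (74.9 CPM, others 46.2 to 50.1). Dmrt3 KO replicate 1 was the lowest of its genotype in Mybl1 (5.70 CPM, others at least 10.9) and Pcm1 (87.2 CPM, others 125 to 130). Trp73 was lowest in double KO replicate 1 (6.55 CPM, others 11.4 to 11.9). The part of RNA quality in these values was not tested.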

How the results depend on the processing

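The log2 fold changes of Gmnc, Mcidas, Ccno and Foxj1 in the double KO against WT and against Dmrt3 KO kept their direction under every alternative run. No result with a called value changed sign. The 4 were past the threshold in each run, where 368 to 3170 genes were called against WT and 358 to 1437 against Dmrt3 KO. These members were listed with the fold changes known, so nothing is read from their calls. Counts of genes called moved by more than 1.5 times as follows. With DESeq2 they were 1541 in the double KO against WT (1012 in edgeR), 424 in Dmrt5 KO against WT (167), 57 in Dmrt3 KO against WT (2), 108 in the double KO against Dmrt5 KO (54), 955 in the double KO against Dmrt3 KO (600) and 127 for the interaction (23). DESeq2 also called 10 axoneme genes in Dmrt5 KO (5), and 2 members and 1 axoneme gene for the interaction (0 each). With only the 2 genotypes in the fit they were 368, 89, 21 and 358 in the comparisons of the double KO with WT, Dmrt5 KO with WT, the double KO with Dmrt5 KO and the double KO with Dmrt3 KO. Axoneme genes were then 6, 2 and 6 in the double KO against WT, Dmrt5 KO against WT and the double KO against Dmrt3 KO (10 in the last with all libraries). Partners and centriole genes were 0 in Dmrt5 KO, and members and partners were 0 in the double KO against Dmrt5 KO. With no filter, 1 partner was called in the double KO against Dmrt5 KO (2).

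The replicate block treated same-numbered libraries as belonging together. By comparison, the lowest correlation of a pair was between -0.357 and 0.0588 and the highest between 0.287 and 0.703. The block gave 380 genes in Dmrt5 KO against WT and 0 partners in the double KO against Dmrt5 KO. With the length slope in the fit, chosen after seeing the data, 3170, 544, 89 and 121 genes were called in the double KO, Dmrt5 KO and Dmrt3 KO against WT and the double KO against Dmrt5 KO. There were then 2 centriole genes in the double KO against WT and against Dmrt3 KO, 10 axoneme genes in Dmrt5 KO, 4 ciliary transport genes (0) and 5 members (4, with Rfx2 added) in the double KO against WT, and a Myb interaction of 0.22 (0.51). Without WT replicate 4 and double KO replicate 5, also chosen after seeing the data, 4 genes were called in Dmrt3 KO, 10 axoneme genes in the double KO, 0 partners and 0 centriole genes in Dmrt5 KO, and 1 member and 1 partner in the double KO against Dmrt5 KO. The Rfx3 interaction was then 0.14 (0.48), and Gmnc was -5.47, -3.00 and -5.20 in the double KO against WT, Dmrt5 KO and Dmrt3 KO.

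Leaving out 1 library at a time, genes called ranged from 727 to 2006 in the double KO, 54 to 244 in Dmrt5 KO and 2 to 6 in Dmrt3 KO against WT, 34 to 79 in the double KO against Dmrt5 KO, 396 to 1437 against Dmrt3 KO and 15 to 33 for the interaction. The highest counts of the double KO against WT and against Dmrt3 KO came without double KO replicate 4 and the lowest of Dmrt5 KO without Dmrt5 KO replicate 2. Members called ranged from 1 to 4 in Dmrt5 KO, 0 to 3 in the double KO against Dmrt5 KO and 0 to 2 for the interaction. Axoneme genes ranged from 10 to 19 in the double KO, 4 to 12 in Dmrt5 KO and 0 to 1 for the interaction, partners from 0 to 2 both in Dmrt5 KO against WT and in the double KO against Dmrt5 KO, and centriole genes from 0 to 1 in Dmrt5 KO. Gmnc ranged from -7.78 to -5.85 in the double KO against WT, -4.91 to -3.01 against Dmrt5 KO, -7.11 to -5.21 against Dmrt3 KO and -4.24 to -2.35 for the interaction, and the Rfx3 interaction reached 0.57. The cause of these moves was not tested. Depth limits the double KO values of Gmnc, with 16 counts over 5 libraries, and of Cdc20b, with 11.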

Other observations

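WT replicate 2 was the lowest WT library in several genes of ciliated epithelium and not in Gmnc or Ccno. It had 50.1 CPM of Ttr, where the other WT libraries had 123 to 235 CPM, and 1.76 CPM of Deup1, where they had 4.57 to 6.18 CPM. Its Mcidas and Foxj1 levels, 5.34 and 35.8 CPM, were also the lowest of WT, while its Ccno level, 20.1 CPM, and its Gmnc level, 10.03 CPM, were the second highest of WT. This library also had the fewest counts of all 18 (19602718), the lowest length slope (-0.196) and a summed level of erythroid markers of 16190 CPM, against 2721 to 8738 CPM in the other WT libraries. The part of these in its values was not tested. In Hey1, a Notch target, the double KO fell to 51.8 ± 7.90 CPM and Dmrt5 KO to 60.9 ± 1.83 CPM, against 97.1 ± 5.82 CPM in WT (SD, n = 5, 4 and 4; edgeR adjusted p = 5.12e-05 and 0.00733). Notch signalling restrains multiciliated fate in airway epithelium, and of the 7 genes of its list Hey1 fell and Dll3 rose in double KO cortex. Dll3, a Notch pathway ligand, had a log2 fold change of 0.70 ± 0.20 there (edgeR adjusted p = 0.0434).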
